A study of Saccharomyces cerevisiae with 36 samples.

Results

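The allantoin and urea utilization genes of Saccharomyces cerevisiae are 9 genes whose products import allantoin, allantoate and urea, break them down to ammonia, and regulate that use. They were taken by systematic name from the deposited table of RNA densities: DAL1 (YIR027C), DAL2 (YIR029W), DAL3 (YIR032C), DAL4 (YIR028W), DAL5 (YJR152W), DAL7 (YIR031C), DAL80 (YKR034W), DUR1,2 (YBR208C) and DUR3 (YHL016C). They are 9 of the 5798 mRNAs in that table and 9 of its 9765 features, and all 9 were found. The rule uses names alone and no measured value, although it was set with earlier results of these data known.

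Allantoin is a purine breakdown product that yeast can use as its nitrogen source when better ones are lacking. Dal4 imports allantoin and Dal5 imports allantoate. Dal1 (allantoinase), Dal2 (allantoicase) and Dal3 (ureidoglycolate lyase) then release urea and glyoxylate, Dal7 is a malate synthase that consumes glyoxylate, Dur3 imports urea, and Dur1,2 (urea amidolyase) splits urea to ammonia. On a good nitrogen source the genes are held low by nitrogen catabolite repression. In that system the GATA factors Gln3 and Gat1 activate through GATAA elements, the GATA factors Dal80 and Gzf3 repress through the same elements, Ure2 keeps Gln3 in the cytoplasm, and Dal81 with Dal82 mediates induction by the pathway intermediate allophanate.

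Strand-specific RNA sequencing was made from rRNA-depleted total RNA of 12 groups of 2 libraries. The mutants were xrn1Δ in S288C (YAM6), in W303 (YAM97), in haploid SK1 (YAM2087) and in diploid SK1 (YAM2068, deleted on both copies), the temperature-sensitive decapping mutant dcp2-7 at 37 °C (YAM2283, S288C background), and upf1Δ in S288C (YAM202). Each had a wild-type group of its own: YAM1 for S288C, YAM92 for W303, YAM1977 for haploid SK1, YAM2067 for diploid SK1, YAM1 at 37 °C, and a further pair of YAM1 libraries for upf1Δ. Xrn1 is the main cytoplasmic 5′-to-3′ exonuclease, Dcp2 removes the cap before Xrn1 acts, and Upf1 is required for nonsense-mediated decay, which degrades RNAs whose translation ends early. Xrn1Δ, dcp2-7 and their 2 matching YAM1 groups were also sequenced after Terminator exonuclease, which digests RNA carrying a 5′ monophosphate (2 libraries each), and capped 5′ ends were listed by CAGE for dcp2-7 and YAM1 at 37 °C. The medium (YPD, for the CAGE cultures only) and the 2 h shift to 37 °C are given for the CAGE cultures and not for the RNA sequencing cultures. The labels do not say that the 2 libraries of a group came from separate cultures, so the p-values measure only the spread between these libraries.

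Depleted libraries held 11021562 to 68466587 reads on features, and Terminator libraries 13208233 to 23350952. A density is the number of reads per nucleotide of the feature multiplied by 1 factor per library, chosen by the authors so that snoRNA reads are equal in every library. It therefore compares genes per length, and its changes are relative to snoRNA. XRN1 averaged a density of 0.00354 in xrn1Δ S288C and 1.60 in its wild type, and at most 0.00189 in the xrn1Δ groups of the other backgrounds against at least 0.343 in their wild types. NAM7, the gene of Upf1, averaged 0.00119 in upf1Δ and 0.585 in its wild type. The diploid SK1 wild-type libraries stood apart: their median mRNA density was 0.0725 and 0.0876, against 0.155 to 0.277 in the other wild-type libraries, and snoRNAs took 16.6% and 18.5% of their reads, against 9.34% to 13.1%. Every diploid result below carries that offset. Because most mRNAs moved against snoRNA, each change is also given where it matters after scaling every library to its own median mRNA, called the mRNA-median scale. This equalizes the median density of mRNAs and not their median change, so a typical change need not be 0 on it. Over all features the median change on it was −0.38 for xrn1Δ in diploid SK1, 0.026 in S288C and −0.090 in upf1Δ. The median change of mRNAs alone on that scale was not computed. In bulk cultures, a change in the share of cells that express a gene and a change in RNA per cell cannot be told apart.

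The region upstream of each gene was read from the R64 reference, in which all 9 genes have the coordinates of the deposited table. Over the 250 bases from 350 to 101 before the start codon, GATAA was counted on both strands (as GATAA or TTATC, which cannot overlap each other). DAL2 and DAL5 held 5 copies, DAL3, DAL7, DAL80 and DUR3 held 4, DAL1 held 2, and DAL4 and DUR1,2 held 1. Of all 6001 promoters read in the same window, 53.5% held at least 1 copy and 1.42% held at least 4. Thus 6 of the 9 genes had a count found in 85 of 6001 promoters, and the median was 4 copies among the 9 genes against 1 among all. The 5 windows printed 5′ to 3′ belong to the genes with the largest changes in upf1Δ described later, with GATAA and TTATC in capitals. They lie at chr9:410457-410706 on the plus strand (DAL2), chr9:415718-415967 on the minus strand (DAL3), chr10:719316-719565 on the plus strand (DAL5), chr9:414824-415029 on the minus strand (DAL7, cut at its capped 5′ end) and chr8:74345-74594 on the minus strand (DUR3). A match is only a match of letters.
DAL2: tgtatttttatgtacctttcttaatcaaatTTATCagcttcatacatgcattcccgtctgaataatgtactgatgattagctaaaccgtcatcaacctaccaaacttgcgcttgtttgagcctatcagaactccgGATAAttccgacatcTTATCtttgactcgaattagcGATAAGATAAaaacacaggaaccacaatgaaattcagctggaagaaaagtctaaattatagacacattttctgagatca
DAL3: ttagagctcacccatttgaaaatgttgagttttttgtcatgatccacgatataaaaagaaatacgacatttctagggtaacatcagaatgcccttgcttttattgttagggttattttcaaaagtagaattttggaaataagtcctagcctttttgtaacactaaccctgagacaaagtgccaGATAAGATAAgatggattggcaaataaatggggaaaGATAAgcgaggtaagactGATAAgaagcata
DAL5: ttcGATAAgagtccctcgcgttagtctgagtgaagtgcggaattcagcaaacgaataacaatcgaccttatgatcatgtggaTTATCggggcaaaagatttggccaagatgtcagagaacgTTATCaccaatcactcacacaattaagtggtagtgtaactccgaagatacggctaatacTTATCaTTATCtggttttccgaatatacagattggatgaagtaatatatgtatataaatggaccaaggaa
DAL7: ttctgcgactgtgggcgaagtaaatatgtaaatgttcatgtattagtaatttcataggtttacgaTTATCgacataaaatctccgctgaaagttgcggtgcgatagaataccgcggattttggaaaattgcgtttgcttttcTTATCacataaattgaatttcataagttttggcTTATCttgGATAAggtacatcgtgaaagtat
DUR3: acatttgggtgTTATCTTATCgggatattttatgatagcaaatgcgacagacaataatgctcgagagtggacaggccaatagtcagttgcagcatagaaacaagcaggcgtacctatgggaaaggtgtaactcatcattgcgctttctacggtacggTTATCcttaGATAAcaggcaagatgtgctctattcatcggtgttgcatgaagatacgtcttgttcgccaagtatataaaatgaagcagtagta

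In wild-type S288C the genes were among the less abundant mRNAs, with DUR1,2 as the exception. In the S288C libraries DUR1,2 had densities of 0.272 and 0.274, above 52.1% of mRNAs. DAL7 followed with 0.0782 and 0.0781, above 16.7% of mRNAs. DAL5 had 0.0597 and 0.0531, DAL2 0.0414 and 0.0459, DUR3 0.0423 and 0.0384, and DAL3 0.0275 and 0.0254. DAL2 and DUR3 overlapped, so their order is not resolved. DAL4 (0.00777 and 0.0101) and DAL1 (0.00844 and 0.00641) also overlapped and stood above fewer than 6% of mRNAs, and DAL80 was lowest with 1 and 5 reads. DUR1,2 stood above 23.9% of mRNAs in wild-type haploid SK1 and 26.8% in wild-type diploid SK1, and DAL3 above 42.1% in wild-type W303. The order differed in xrn1Δ S288C, where DAL7 (1.19 and 1.15) and DAL5 (0.623 and 0.608) lay above DUR1,2 (0.57 and 0.556).

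**Figure D1:**
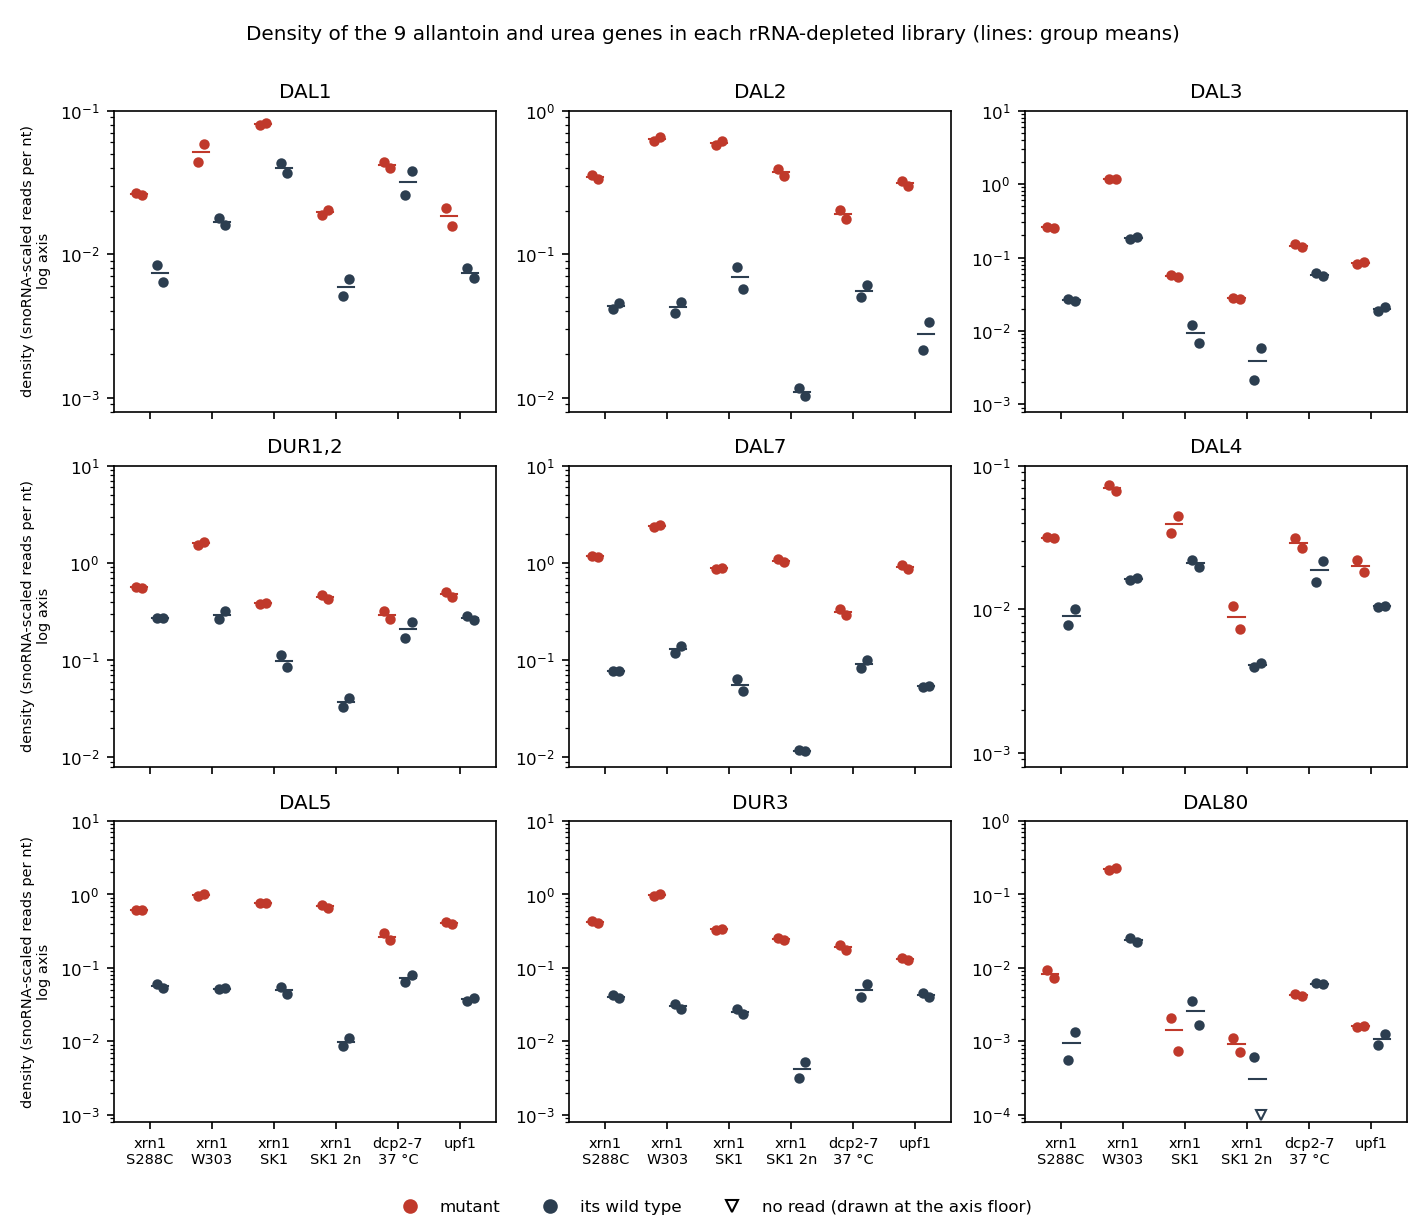
Density (reads per nucleotide relative to snoRNA, log axis) of the 9 genes in each of the 24 rRNA-depleted libraries, 1 point per library, with each mutant left of its wild type; an open triangle marks a library with no read. DAL7 lay at 0.952 and 0.86 in upf1Δ against 0.0527 and 0.0546 in its wild type, while DAL80 stayed below 0.01 outside W303.

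In each of the 6 mutants most of the 9 genes rose relative to snoRNA, and so did most mRNAs in the xrn1Δ and dcp2-7 libraries. The test was limma on log2(density + 0.00577), 2 libraries against 2, with Benjamini-Hochberg adjustment over 9712 features, and a gene was called at an adjusted p below 0.05. In xrn1Δ 9 of the 9 genes rose in S288C, where 94.8% of all mRNAs did, 9 in W303 (97.6% of mRNAs), 8 in haploid SK1 (92.9%, with 1.08% falling) and 8 in diploid SK1 (97.2%). In dcp2-7 7 genes rose, against 80.2% of mRNAs. In upf1Δ 8 of the 9 rose, against 47.0% of mRNAs. By limma none of the 9 fell in any of the 6 comparisons, also at an unadjusted p below 0.05 and by limma voom on recovered reads. The counts in xrn1Δ and dcp2-7 are near the background.

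The median log2 change of the 9 genes was 2.83 in xrn1Δ S288C, against 1.58 for all mRNAs. It was 2.95 against 1.97 in W303, 2.05 against 1.55 in haploid SK1, 3.42 against 3.14 in diploid SK1, 1.23 against 0.71 in dcp2-7, and 1.51 against 0.32 in upf1Δ. The 9 genes split on the mRNA-median scale. In xrn1Δ, 5 rose and 1 fell in S288C (28.9% of mRNAs rose and 43.4% fell), 7 rose and 1 fell in W303 (30.3% and 43.3%), 6 rose and 3 fell in haploid SK1 (31.9% and 43.4%), and 4 rose and 2 fell in diploid SK1 (31.3% and 48.2%). On that scale 4 rose and 3 fell in dcp2-7 (23.5% and 39.5% of mRNAs), and 6 rose and none fell in upf1Δ (22.5% and 53.0%). DAL2, DAL5, DAL7 and DUR3 rose on both scales in all 6 mutants. The share of all mRNAs that did so was not counted, and the 4 xrn1Δ comparisons share a mutated gene.

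**Figure D2:**
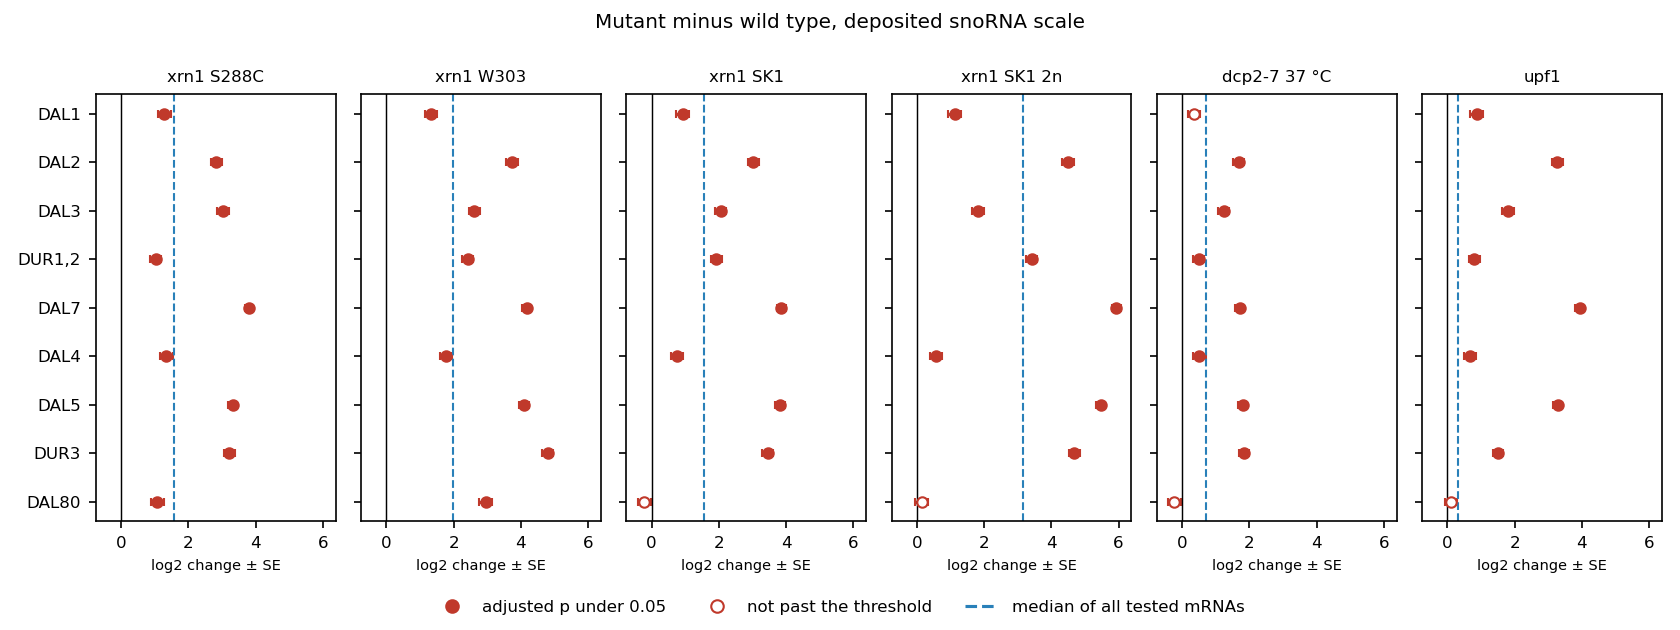
Log2 change with its standard error of each of the 9 genes in the 6 mutants against their own wild types, on the snoRNA scale, with a line at the median mRNA. DAL2, DAL5, DAL7 and DUR3 lie above that line in every panel, and DAL1 and DAL4 lie below it in all but upf1Δ. The pseudocount understates the changes of DAL1 and DAL4, which have low densities.

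Among the catabolic enzymes, the malate synthase gene DAL7 had the largest changes. DAL7 had densities of 1.19 and 1.15 in xrn1Δ S288C, against 0.0782 and 0.0781 in its wild type, a log2 change of 3.80 ± 0.13 (SE, adjusted p = 9.27e-17). In upf1Δ it had 0.952 and 0.86, against 0.0527 and 0.0546 in its wild type, a log2 change of 3.94 ± 0.13 (adjusted p = 7.02e-16) and a density ratio of 16.9. The groups did not overlap in either comparison, and 99.5% and 99.9% of mRNAs had a smaller change. DAL7 had 2.37 and 2.48 in xrn1Δ W303 against 0.118 and 0.14 in its wild type, and 0.878 and 0.879 in xrn1Δ haploid SK1 against 0.0642 and 0.048. In diploid SK1 it had 1.09 and 1.02 in xrn1Δ against 0.0118 and 0.0117 in the wild type, and in dcp2-7 it had 0.338 and 0.289 against 0.0829 and 0.0999. All mutant libraries lay above all of their wild-type libraries, by log2 4.18, 3.85, 5.93 and 1.72 in W303, haploid SK1, diploid SK1 and dcp2-7, the highest of the adjusted p-values being 1.45e-10.

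The allantoicase gene DAL2 had 0.356 and 0.335 in xrn1Δ S288C, against 0.0414 and 0.0459 in its wild type. Its log2 change was 2.83 ± 0.17 (adjusted p = 2.88e-13). In upf1Δ DAL2 had 0.323 and 0.299, against 0.0216 and 0.0335 in its wild type, a log2 change of 3.27 ± 0.17 (adjusted p = 1.59e-13). Every mutant library again lay above every wild-type library, and DAL2 stood above 57.8% of mRNAs in upf1Δ, against 11.5% in that wild type. The log2 change was 3.74 in xrn1Δ W303, 3.02 in xrn1Δ haploid SK1, 4.50 in xrn1Δ diploid SK1 and 1.68 in dcp2-7. In dcp2-7 DAL2 had 0.204 and 0.177, against 0.0505 and 0.0607 in the wild type at 37 °C.

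DAL3, which makes the urea-releasing ureidoglycolate lyase, had 0.259 and 0.255 in xrn1Δ S288C, against 0.0275 and 0.0254 in its wild type (log2 change 3.03 ± 0.17, adjusted p = 1.2e-13). In upf1Δ it had 0.0813 and 0.0872, against 0.0188 and 0.0213 (log2 change 1.80 ± 0.17, adjusted p = 3e-09). DAL3 rose in every mutant on the snoRNA scale, with the groups apart each time. It had 1.17 and 1.16 in xrn1Δ W303, against 0.178 and 0.192 in wild-type W303, above its levels in the other backgrounds in both genotypes. In xrn1Δ diploid SK1 its log2 change of 1.82 (0.0284 and 0.0276 against 0.00214 and 0.00578) lay below that of the median mRNA, at −0.40 on the mRNA-median scale (adjusted p = 0.0834), and in dcp2-7 its 1.23 became 0.42 on that scale (adjusted p = 0.0816).

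DUR1,2, the urea amidolyase gene, was the most abundant of the 9 in each of the 6 wild-type groups but changed less. It had 0.57 and 0.556 in xrn1Δ S288C, against 0.272 and 0.274 in its wild type (log2 change 1.03 ± 0.16, adjusted p = 2.7e-06), a smaller rise than that of the median mRNA. It was lower in xrn1Δ S288C on the mRNA-median scale, by −0.73 (adjusted p = 1.61e-06), so the direction depends on the scale. In upf1Δ it had 0.509 and 0.442, against 0.282 and 0.257 (log2 change 0.80 ± 0.16, adjusted p = 0.000162), and 0.18 on the mRNA-median scale (adjusted p = 0.0828). DUR1,2 had 1.53 and 1.65 in xrn1Δ W303, against 0.267 and 0.323 in wild-type W303, and rose on both scales there (2.41, and 0.27 on the mRNA-median scale, adjusted p = 0.0114). In dcp2-7 it had 0.324 and 0.262, against 0.169 and 0.248, a log2 change of 0.50 (adjusted p = 0.00804) that was −0.35 on the mRNA-median scale. The call in dcp2-7 was lost without wild-type replicate 1 (0.23) or without dcp2-7 replicate 1 (0.35).

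The allantoinase gene DAL1, the first enzyme of the pathway, stayed low in every group. Its densities in wild-type S288C were close to the pseudocount of 0.00577, which understates its log2 change there. DAL1 had 0.0266 and 0.026 in xrn1Δ S288C, against 0.00844 and 0.00641 in its wild type, a log2 change of 1.28 ± 0.19 (adjusted p = 1.12e-06) that was 0.03 on the mRNA-median scale (adjusted p = 0.882). It had 0.0208 and 0.0158 in upf1Δ, against 0.008 and 0.00677 (log2 change 0.87 ± 0.19, adjusted p = 0.000409, and 0.52 on the mRNA-median scale, adjusted p = 0.00467). Its density passed 0.06 only in the haploid SK1 xrn1Δ libraries, at 0.0793 and 0.0821 against 0.0433 and 0.0367 in wild-type haploid SK1. In dcp2-7 DAL1 had 0.0437 and 0.0398, against 0.026 and 0.0379, and did not pass the test (log2 change 0.35, adjusted p = 0.0971), except without wild-type replicate 2 (0.58) or by limma voom (0.42).

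Of the transporter genes, DAL5 and DUR3 changed more than the median mRNA in all 6 mutants and DAL4 in upf1Δ alone, by log2(density + 0.00577). That pseudocount understates the changes of DAL4, which averaged 0.00893 in wild-type S288C and 0.0164 in wild-type W303. Its place against the median mRNA in xrn1Δ S288C and xrn1Δ W303 is therefore not settled. The allantoate permease gene DAL5 had 0.623 and 0.608 in xrn1Δ S288C, against 0.0597 and 0.0531 in its wild type (log2 change 3.32 ± 0.14, adjusted p = 1.09e-15). In upf1Δ DAL5 had 0.428 and 0.4, against 0.0358 and 0.0394, a log2 change of 3.28 ± 0.14 (adjusted p = 1.09e-14). Both mutants lay above their wild types in every library, and 99.6% of mRNAs changed less than DAL5 in upf1Δ. Its log2 change was 4.09 in xrn1Δ W303, 3.82 in xrn1Δ haploid SK1, 5.47 in xrn1Δ diploid SK1 and 1.80 in dcp2-7. In diploid SK1 DAL5 had 0.714 and 0.665 in xrn1Δ, against 0.00862 and 0.0113 in the wild type, and in dcp2-7 it had 0.295 and 0.241 against 0.0653 and 0.0801.

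The urea transporter gene DUR3 had 0.437 and 0.411 in xrn1Δ S288C, against 0.0423 and 0.0384 in its wild type (log2 change 3.22 ± 0.16, adjusted p = 1.66e-14). In upf1Δ DUR3 had 0.136 and 0.127, against 0.0453 and 0.0398, a smaller log2 change of 1.51 ± 0.16 (adjusted p = 2.05e-08). Its mutant libraries lay apart from the wild type in both. In W303 it had the largest change of the 9 genes, with 0.951 and 1.02 in xrn1Δ against 0.0324 and 0.0274 in the wild type (log2 change 4.80 ± 0.16, adjusted p = 3.97e-17), and 99.8% of mRNAs changed less. The log2 change was 3.45 in xrn1Δ haploid SK1, 4.68 in xrn1Δ diploid SK1 and 1.84 in dcp2-7.

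The allantoin permease gene DAL4 lay with DAL1 at the low end. DAL4 had 0.0318 and 0.0312 in xrn1Δ S288C, against 0.00777 and 0.0101 in its wild type, a log2 change of 1.35 ± 0.19 (adjusted p = 4.36e-07) that was 0.03 on the mRNA-median scale (adjusted p = 0.885). In upf1Δ it had 0.0221 and 0.0181, against 0.0105 and 0.0105, a log2 change of 0.66 ± 0.19 (adjusted p = 0.00399) and 0.24 on the mRNA-median scale (adjusted p = 0.147), and the call was lost without upf1Δ replicate 1 (0.55). Its largest change, 1.78 in xrn1Δ W303 (0.0735 and 0.0666 against 0.0161 and 0.0166), was −0.05 on the mRNA-median scale. The smaller changes of DAL4 were 0.76 in xrn1Δ haploid SK1, 0.56 in xrn1Δ diploid SK1 and 0.51 in dcp2-7 (adjusted p = 0.0169). The call was lost in diploid SK1 without xrn1Δ replicate 1 (0.41), and in dcp2-7 without wild-type replicate 1 (0.33) or dcp2-7 replicate 1 (0.41). DAL4 and the neighbouring DAL1 each overlap long noncoding RNAs on the other strand, described below.

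The repressor gene DAL80 was near the detection limit outside W303. It had 193 and 188 reads in xrn1Δ W303 (density 0.215 and 0.232), against 43 and 19 reads in wild-type W303 (0.0255 and 0.0225), a log2 change of 2.95 ± 0.19 (adjusted p = 9.64e-13). In xrn1Δ S288C it had 26 and 18 reads, against 1 and 5 in its wild type, and its log2 change of 1.07 ± 0.19 (adjusted p = 1.64e-05) was 2.59 with a pseudocount 10 times lower, 0.26 with the 25th percentile as pseudocount and 2.87 by limma voom. Chromosome 11, which carries DAL80, had a median mRNA change of 2.46 in that comparison against 1.54 elsewhere, and its part in the DAL80 value was not tested. In haploid SK1 DAL80 had 5 and 2 reads in xrn1Δ against 11 and 4 in the wild type, in diploid SK1 3 and 2 against 2 and 0, in dcp2-7 15 and 14 against 29 and 24, and in upf1Δ 4 and 6 against 4 and 8. None of these 4 comparisons passed the test (limma voom called diploid SK1, at 2.11), and at 0 to 29 reads a difference was not detectable at this depth unless large.

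The changes of upf1Δ and of xrn1Δ in S288C were set against each other directly, each relative to its own wild type. On the snoRNA scale DAL3 (difference −1.23), DAL4 (−0.68), DAL80 (−0.96) and DUR3 (−1.71) changed less in upf1Δ, and no gene changed more at an adjusted or an unadjusted p below 0.05 (1 by limma voom on recovered reads), where 79.0% of mRNAs changed less and 0.990% more. On the mRNA-median scale DAL2 (1.65), DAL5 (1.15), DAL7 (1.32) and DUR1,2 (0.91) changed more in upf1Δ, where 34.2% of mRNAs did, and DUR3 changed less (−0.56, adjusted p = 0.0153), where 24.4% did. The call of DAL4 was lost without any 1 of 5 libraries (WT replicate 1 or xrn1Δ replicate 1 of S288C, either wild-type library of the upf1Δ set, or upf1Δ replicate 2), at −0.69 to −0.57, and 1 gene changed more without wild-type replicate 2 of the upf1Δ set. On the snoRNA scale the changes of DAL2, DAL5 and DAL7 therefore differed by less than the test could resolve, although the median mRNA rose by 1.58 in xrn1Δ and by 0.32 in upf1Δ. The 2 wild-type groups, both YAM1, were themselves apart: the median mRNA of the upf1Δ set differed by −0.55 from that of wild-type S288C. DAL2, DAL5 and DAL7 were also lower there, and the part of these baselines in the comparison was not tested. DAL80 lies on chromosome 11, whose median difference was −2.01 against −0.99 elsewhere, and its own difference ran from −2.28 to −0.24 with the pseudocount and by limma voom. DUR3 was the only gene of the 9 that changed less in upf1Δ on both scales. Against xrn1Δ, dcp2-7 showed a smaller change of all 9 genes and a larger one of none by limma (none also at an unadjusted p below 0.05 and by limma voom), where 69.8% of mRNAs changed less and 1.74% more, with a median difference of −1.31 for the 9 genes and −0.80 for all mRNAs, and of −1.74 on chromosome 11 against −0.76 elsewhere. On the mRNA-median scale 5 changed less and 1 (DUR1,2) more, where 22.2% and 33.3% of mRNAs did. On the snoRNA scale the smaller change of DUR1,2 lost its call without any 1 of 6 libraries (both wild-type and both xrn1Δ libraries of S288C, or replicate 2 of the wild type at 37 °C or of dcp2-7), at −0.55 to −0.26.

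The size of the xrn1Δ change also differed between backgrounds. It was larger in W303 than in S288C for 5 genes, where it was larger for 29.2% of mRNAs, and smaller for none, where it was smaller for 3.73% (also at an unadjusted p below 0.05 and by limma voom). After scaling to the median mRNA it was larger for 3 and smaller for 1, where it was for 9.36% and 9.70% of mRNAs. In haploid SK1 it was larger than in S288C for 2 genes and smaller for 2, where 13.5% of mRNAs had a larger and 18.6% a smaller change. Larger changes numbered 2 and smaller ones 3 on the mRNA-median scale, where 29.2% and 22.7% of mRNAs had them. In diploid against haploid SK1 it was larger for 5 genes, where 87.7% of mRNAs had a larger change, and on the mRNA-median scale larger for 2 and smaller for 3 (21.5% and 36.5% of mRNAs). The genes and values are given among the results for a closer look.

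The wild types themselves differed. The labels tie no libraries of different groups to a shared batch, so strain or temperature cannot be told apart from the library set. The YAM1 group that accompanied upf1Δ also differed from the S288C group of the same strain, as given below. W303 was higher than S288C in DAL3 (log2 difference 2.57, adjusted p = 1.04e-10), DAL80 (2.15, adjusted p = 2.02e-08), DAL1 (0.78, adjusted p = 0.00453), DAL7 (0.68, adjusted p = 0.000664) and DAL4 (0.59, adjusted p = 0.0239), where 6.61% of mRNAs were higher, and 5 of the 9 were higher on the mRNA-median scale too (17.3% of mRNAs). The DAL80 difference ran from 0.69 to 4.40 with the pseudocount and by limma voom, past the threshold each time. DAL3 had 0.178 and 0.192 in wild-type W303, against 0.0275 and 0.0254 in wild-type S288C, so that it stood above 42.1% of mRNAs in W303 and 8.66% in S288C. The W303 calls were lost for DAL4 without S288C replicate 1 (0.48) or either W303 library (0.61 and 0.58), and for DAL1 without S288C replicate 2 (0.67). Haploid SK1 was higher than S288C in DAL1 (1.80, adjusted p = 4.82e-08), DAL4 (0.86, adjusted p = 0.000535) and DAL2 (0.59, adjusted p = 0.00552), where 19.1% of mRNAs were higher. It was lower in DUR1,2 (−1.44, adjusted p = 1.22e-07), DAL3 (−1.11, adjusted p = 9.65e-06), DUR3 (−0.57, adjusted p = 0.00462) and DAL7 (−0.45, adjusted p = 0.00642), where 29.7% of mRNAs were lower. The SK1 calls were lost for DAL2 without S288C replicate 1 (0.52) or SK1 replicate 1 (0.35), and for DAL7 without SK1 replicate 2 (−0.26). DAL3 was thus higher in W303 and lower in haploid SK1 than in S288C. Whether reads of W303 and SK1 align less well where those strains differ in sequence from the reference was not tested.

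All 9 genes were lower in diploid than in haploid SK1 wild type, where 94.2% of mRNAs were lower, and the median difference was −1.64 for the 9 genes and −1.41 for all mRNAs. Of the 9, 6 were lower and none higher on the mRNA-median scale, where 29.5% of mRNAs were lower and 34.3% higher. The call was lost for DAL3 without diploid replicate 1 (−0.37), and for DAL80 without either diploid library (−0.53 and −0.38) or without haploid replicate 1 (−0.29). At 37 °C the S288C wild type was higher than the wild-type S288C group in DAL1 (1.50, adjusted p = 4.53e-06), DAL3 (1.00, adjusted p = 0.000136), DAL80 (0.82, adjusted p = 0.0027, and 0.19 to 2.41 with other pseudocounts and limma voom) and DAL4 (0.73, adjusted p = 0.00555), where 10.7% of mRNAs were higher. There were 6 genes higher and 1 lower on the mRNA-median scale, where 19.2% and 28.4% of mRNAs were. The call of DAL4 was lost without S288C replicate 1 (0.61) or without replicate 2 at 37 °C (0.54), and without the replicate 2 at 37 °C 1 gene was lower. The 2 YAM1 groups, of the same strain, also differed. The one that accompanied upf1Δ was lower in DAL2 (−0.59), DAL5 (−0.52) and DAL7 (−0.50), where 69.8% of mRNAs were lower and the median mRNA differed by −0.55. On the mRNA-median scale 4 of the 9 were higher and none lower, where 34.2% of mRNAs were higher and 23.2% lower. The lower call of DAL2 was lost without replicate 1 of the group that accompanied upf1Δ (−0.33).

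**Figure D3:**
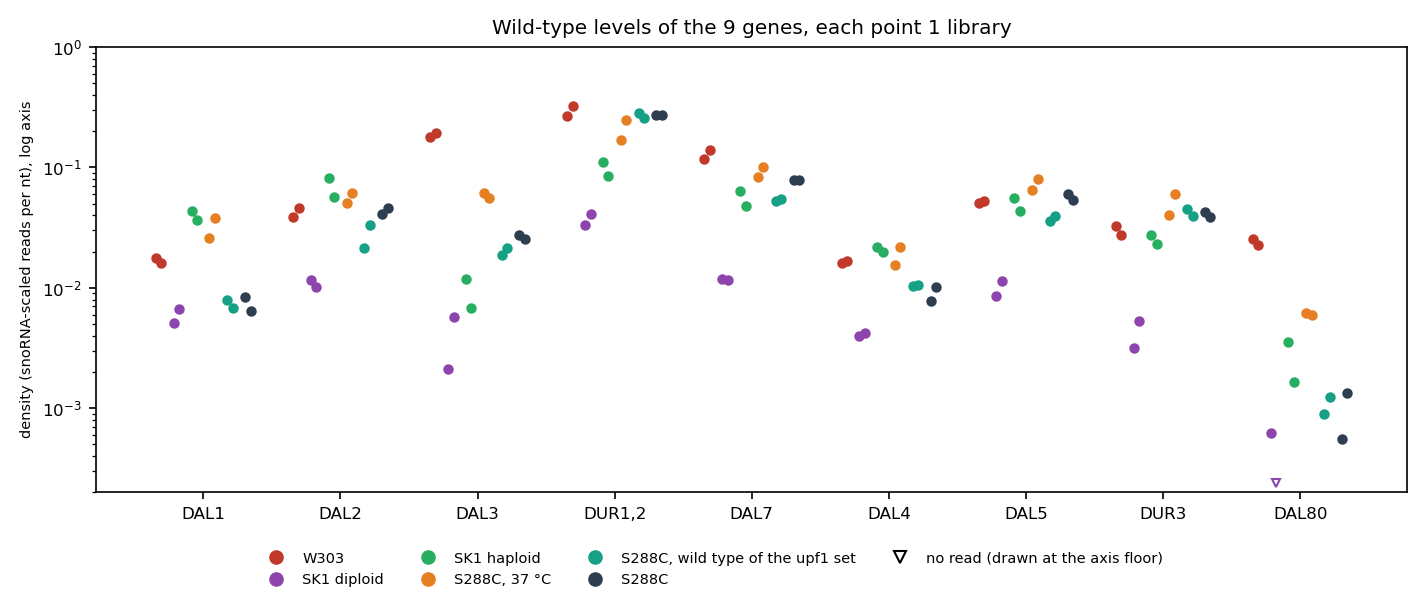
Density (reads per nucleotide relative to snoRNA, log axis) of the 9 genes in the wild-type groups, 1 point per library. DAL3 and DAL80 lie highest in W303, and all 9 genes lie low in diploid SK1.

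After Terminator exonuclease DAL5 had lower densities in each genotype and temperature, and in xrn1Δ most of the genes fell with most mRNAs. The values compare treated with untreated RNA of the same genotype over 8 of the 9 genes, DAL80 having 0 to 9 reads per treated library and not being tested. In xrn1Δ 7 of the 8 fell, near the background of 88.4% of mRNAs, with a median of −1.67 for the 8 genes and −1.10 for all mRNAs. DAL7 had 0.236 and 0.283 after treatment, against 1.19 and 1.15 untreated (log2 change −2.14 ± 0.15, adjusted p = 3.79e-13). DAL5 had 0.121 and 0.132 after treatment, against 0.623 and 0.608 untreated (log2 change −2.22 ± 0.17, adjusted p = 1.37e-12). DAL2 (−1.98), DUR3 (−1.94), DAL3 (−1.41), DUR1,2 (−1.06) and DAL1 (−0.78) fell too, and DAL4 did not pass the test (−0.34, adjusted p = 0.165). The call of DAL1 was lost without treated replicate 2 (−0.59). Of the 8, 4 fell and 1 rose on the mRNA-median scale, where 27.1% of mRNAs fell and 42.4% rose.

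In the wild type 2 of the 8 fell after treatment, DAL5 and DUR1,2, where 15.6% of mRNAs fell, and 3 fell on the mRNA-median scale, where 26.3% did. DAL5 had 0.0239 and 0.0302 after treatment, against 0.0597 and 0.0531 untreated (log2 change −0.87 ± 0.17, adjusted p = 0.000184), and DUR1,2 changed by −0.56 (adjusted p = 0.0116). The call of DUR1,2 was lost, leaving 1 gene, without either untreated library (−0.57 and −0.55) or without treated replicate 1 (−0.43). In dcp2-7 at 37 °C DAL5 was the only gene of the 8 to fall, with 0.154 and 0.155 after treatment, against 0.295 and 0.241 untreated (−0.75 ± 0.17, adjusted p = 0.00109), where 3.85% of mRNAs fell. In the wild type at 37 °C DAL5 was again the only one, with 0.0425 and 0.0537 after treatment, against 0.0653 and 0.0801 untreated (−0.52 ± 0.17, adjusted p = 0.0236), where 2.43% of mRNAs fell. That call was lost, leaving no gene, without untreated replicate 2 (−0.39) or treated replicate 1 (−0.38), and without either of the other 2 libraries there were 2 genes. On the mRNA-median scale 3 of the 8 fell in dcp2-7 and 4 in the wild type at 37 °C, where 20.3% and 20.6% of mRNAs did. DAL5 fell in all 4 genotype and temperature groups on both scales, by −0.99, −0.85, −0.85 and −0.68 on the mRNA-median scale in xrn1Δ, wild type, dcp2-7 and wild type at 37 °C, and at most 2.01% of mRNAs had a more negative change on the snoRNA scale in any of them. The fall was larger in xrn1Δ than in the wild type for 7 genes, where it was for 87.8% of mRNAs, and for 2 genes on the mRNA-median scale (16.5% of mRNAs), with DUR1,2 smaller there. On the snoRNA scale the call of DUR1,2 (−0.50, adjusted p = 0.0475) was lost without any 1 of 7 of the 8 libraries, the exception being treated wild-type replicate 1, at −0.52 to −0.37. By limma no gene of the 8 differed between dcp2-7 and its wild type in its response, also at an unadjusted p below 0.05 and by limma voom, where at most 0.0175% of mRNAs did.

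**Figure D4:**
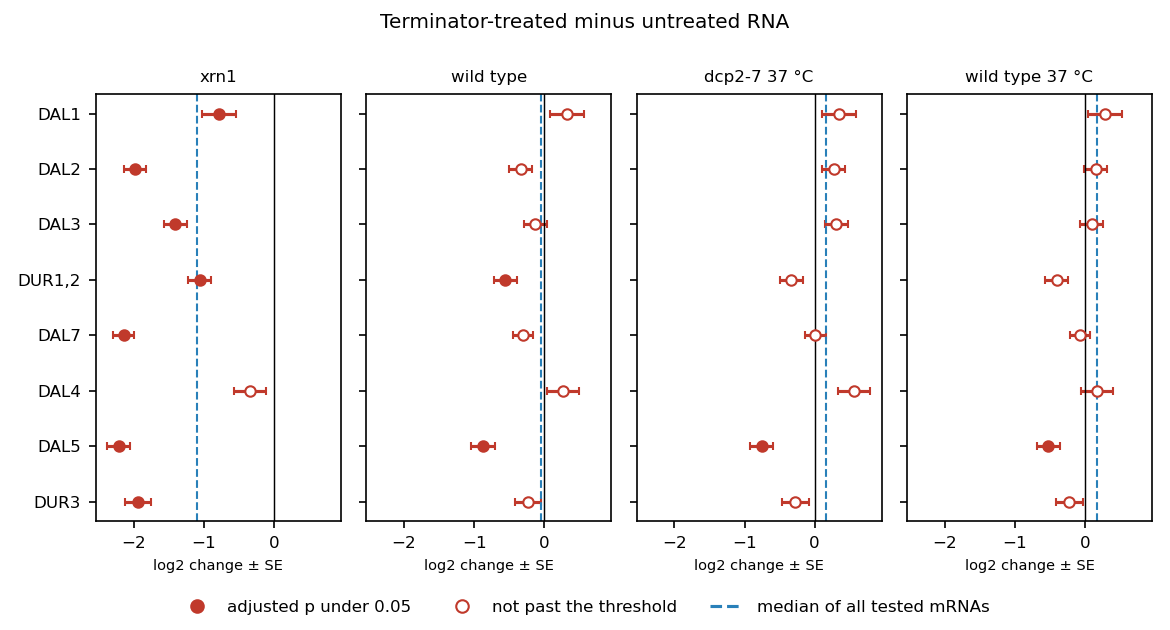
Log2 change after Terminator exonuclease with its standard error for the 8 tested genes in xrn1Δ, wild type, dcp2-7 at 37 °C and wild type at 37 °C, with a line at the median mRNA. DAL5 lies below that line in all 4 panels, at −2.22, −0.87, −0.75 and −0.52.

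DAL1, DAL4, DAL2, DAL7 and DAL3 lie together on chromosome 9, with DCG1, a gene of unknown function, between DAL2 and DAL7. DAL1 (406260 to 407642, minus strand) and DAL4 (408468 to 410375, plus strand) are divergent neighbours, followed by DAL2 (410807 to 411838, plus), DCG1 (412036 to 412770, minus), DAL7 (413015 to 414679, minus) and DAL3 (415030 to 415617, minus). DCG1 was lower in xrn1Δ S288C (−0.53, adjusted p = 0.0145), in xrn1Δ haploid SK1 (−0.66, adjusted p = 0.00361) and in dcp2-7 (−1.30, adjusted p = 3.79e-06), while DAL2 and DAL7 on either side rose in all 3. DCG1 was higher in upf1Δ (0.59, adjusted p = 0.0131), and did not pass the test in xrn1Δ W303 (0.08) or diploid SK1 (0.04). Scaled to the median mRNA it was lower in all 4 xrn1Δ comparisons (−2.01 in S288C, −1.94 in W303, −2.18 in haploid SK1 and −2.54 in diploid SK1) and in dcp2-7 (−2.03), and was at 0.05 in upf1Δ (adjusted p = 0.786). On the snoRNA scale its call was lost in S288C without wild-type replicate 2 (−0.44) or xrn1Δ replicate 1 (−0.31), in haploid SK1 without wild-type replicate 1 (−0.48), and in upf1Δ without replicate 1 of the wild type (0.49) or of upf1Δ (0.52).

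Opposite DAL1 and DAL4 the deposited table lists annotated long noncoding RNAs, which the strand-specific libraries count apart from the genes. SUT195 (406596 to 407844) and XUT0502 (406689 to 408344) cover 1047 and 954 nucleotides of DAL1, and SUT614 (408336 to 410216) and XUT1352 (408405 to 409826) cover 1749 and 1359 nucleotides of DAL4. The RNAs of each pair overlap and share reads, so each pair is 1 signal. Of the 9 genes 2 had such an RNA opposite them, and 27.6% of all mRNAs did. XUT1352 had 0.124 and 0.116 in upf1Δ, against 0.0102 and 0.0125 in its wild type, a log2 change of 2.88, while DAL4 on the other strand changed by 0.66. XUT1352 had 0.0463 and 0.0373 in dcp2-7, against 0.0235 and 0.0298 at 37 °C (0.55). XUT0502 had 0.28 and 0.246 in dcp2-7 against 0.0536 and 0.0665 in the wild type at 37 °C (2.03), and a log2 change of 1.93 in upf1Δ. In xrn1Δ S288C XUT0502 had 0.121 and 0.125 against 0.0111 and 0.00901 (3.02), and XUT1352 0.0706 and 0.0718 against 0.0123 and 0.0131 (2.06). In each mutant all 4 RNAs were called higher on the snoRNA scale, but on the mRNA-median scale all 4 were at −0.39 to −0.07 in diploid SK1, SUT614 (−0.08) and XUT1352 (−0.18) were below 0 in dcp2-7, and XUT1352 was at −0.00104 in haploid SK1. In upf1Δ and xrn1Δ S288C both signals had higher densities than the mRNA opposite them. On average so did they in dcp2-7, in wild-type S288C and in the wild type at 37 °C. In wild-type S288C XUT0502 averaged 0.0101 against 0.00743 for DAL1, and XUT1352 0.0127 against 0.00893 for DAL4. In the wild type of the upf1Δ set DAL4 (0.0105) lay between SUT614 (0.00962) and XUT1352 (0.0114). In the wild types of W303 and of haploid and diploid SK1 both signals lay below the mRNA. In the xrn1Δ groups of those backgrounds the order was mixed. XUT0502 averaged 0.0618 against 0.0807 for DAL1 in haploid SK1, 0.0142 against 0.0196 in diploid SK1, and 0.0954 against 0.0512 in W303. XUT1352 averaged 0.0458 against 0.0395 for DAL4 in haploid SK1 and 0.0791 against 0.0700 in W303, with SUT614 below DAL4 in each, and both lay below DAL4 in diploid SK1.

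**Figure D5:**
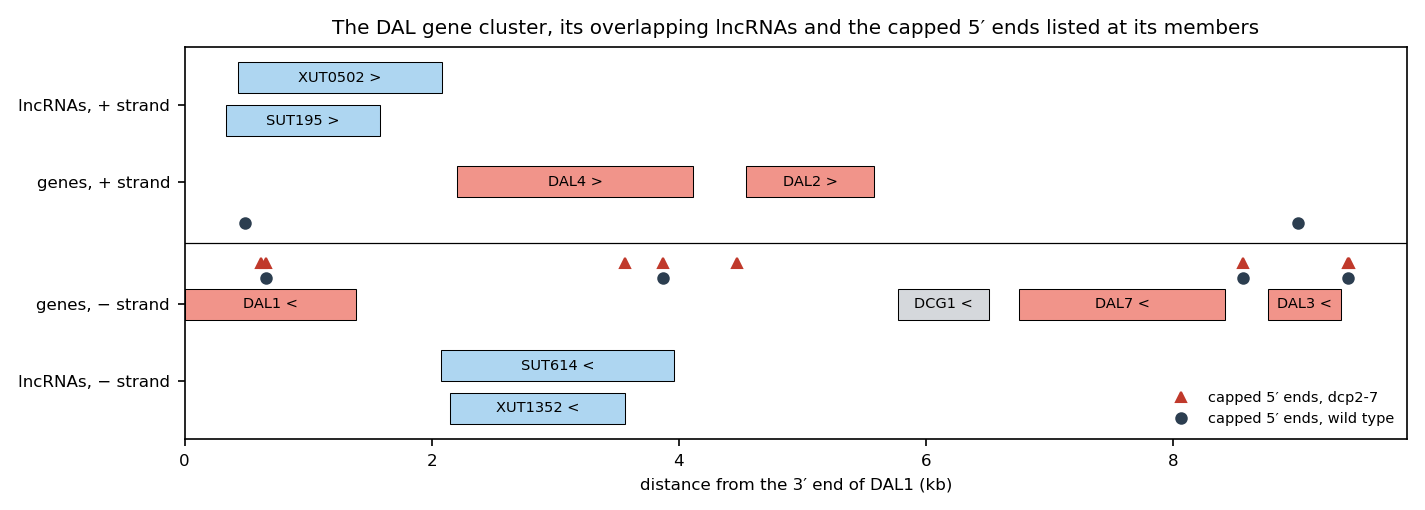
Map of the DAL cluster on chromosome 9 with genes and long noncoding RNAs drawn by strand and the positions of capped 5′ ends listed by CAGE; the x axis is the distance in kilobases from the 3′ end of DAL1. Capped ends lie just upstream of DAL7 and DAL3, and others lie inside or opposite DAL1 and DAL4.

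Capped 5′ ends were listed upstream of few of the genes on their own strand. The CAGE lists give positions pooled over replicates, without scores. In the window from 250 nucleotides upstream to 50 downstream of the start codon, 2 of the 9 genes had a listed end on their own strand in dcp2-7 and 2 in the wild type at 37 °C, where 75.5% and 75.4% of all mRNAs had one. They were DAL7, with an end 144 nucleotides before the start codon in both lists, and DAL3, with an end at 63 in both lists and at 66 in dcp2-7. DAL1 had listed ends inside the gene at nucleotide 725 in both lists, and DAL4 had one on the opposite strand at 1668 in both lists. In dcp2-7 alone, DAL2 had an end on the opposite strand 76 nucleotides upstream, and DUR1,2 had 4 ends inside the gene on its own strand and 1 on the opposite strand. That list also held an end inside DAL1 on its own strand at 767. Opposite-strand ends lay inside DAL4 at 1359 (position 409826, the annotated 5′ end of XUT1352) and inside DAL80 at 343. In the wild type at 37 °C alone, opposite-strand ends lay inside DAL1 at 894 and DAL3 at 344. DAL5 and DUR3 had none on either strand. A list without scores shows no level, and a missing end is not evidence of no transcription. The 144 nucleotides of the DAL7 leader held 3 ATG triplets before the start codon, 2 of them in frame, and the 63 of DAL3 held 1, out of frame. Among mRNAs with a listed end, 12.6% in dcp2-7 and 11.2% in the wild type at 37 °C had at least 1 such triplet, 0.897% and 0.587% had at least 3, and the median leader was 42 and 41 nucleotides.

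The regulators of nitrogen use rose in xrn1Δ, where most mRNAs did, and their median log2 change in upf1Δ was 0.36, against 0.32 for all mRNAs. Of GLN3, GAT1, GZF3, URE2, DAL81 and DAL82, 6 of 6 rose in each of the 4 xrn1Δ comparisons, 5 of 6 in dcp2-7 and 3 of 6 in upf1Δ, and none fell at an adjusted or unadjusted p below 0.05 by limma. Of all mRNAs 80.2% rose in dcp2-7 and 47.0% in upf1Δ. On the mRNA-median scale 2 rose and 1 fell in xrn1Δ S288C, 5 and 1 in W303, 5 and 1 in haploid SK1, 5 and 0 in diploid SK1, 1 and 2 in dcp2-7, and 1 and 3 in upf1Δ. In that order 28.9%, 30.3%, 31.9%, 31.3%, 23.5% and 22.5% of all mRNAs rose on that scale. Those that fell were 43.4%, 43.3%, 43.4%, 48.2%, 39.5% and 53.0%. The 3 that rose in upf1Δ were DAL82 (0.96), the allophanate-responsive activator, GAT1 (0.78, adjusted p = 0.0164) and GLN3 (0.40, adjusted p = 0.0401). DAL81 (0.32, adjusted p = 0.0543), URE2 (0.22, adjusted p = 0.139) and GZF3 (0.10, adjusted p = 0.549) did not pass the test there. On the mRNA-median scale GLN3 was at −0.17, GZF3 at −0.52, URE2 at −0.41 and DAL81 at −0.27 in upf1Δ. On the snoRNA scale the change of GLN3 there (0.40) lay above that of the median mRNA (0.32). DAL82 was the only regulator called higher in all 6 mutants on both scales, at 2.30 in xrn1Δ S288C, 2.76 in W303, 2.31 in haploid SK1, 4.05 in diploid SK1 and 1.54 in dcp2-7.

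Of 14 other genes for nitrogen-source uptake and breakdown, DCG1 among them, 13 rose in xrn1Δ S288C, 13 in W303, 12 in haploid SK1, 13 in diploid SK1, 10 in dcp2-7 and 7 in upf1Δ. Of the same 14, 1 fell in xrn1Δ S288C, 1 in haploid SK1 and 2 in dcp2-7. Scaled to the median mRNA, 3 rose and 6 fell in xrn1Δ S288C, 8 and 4 in W303, 9 and 3 in haploid SK1, 3 and 8 in diploid SK1, 3 and 5 in dcp2-7, and 3 and 7 in upf1Δ. In that order, 94.8%, 97.6%, 92.9%, 97.2%, 80.2% and 47.0% of all mRNAs rose on the snoRNA scale. Those that fell were 0.260%, 0.243%, 1.08%, 0.399%, 1.55% and 0.521%. On the mRNA-median scale 28.9%, 30.3%, 31.9%, 31.3%, 23.5% and 22.5% rose, and 43.4%, 43.3%, 43.4%, 48.2%, 39.5% and 53.0% fell. The same shares apply to the lists that follow. MEP2, an ammonium permease gene, changed by 2.60 in xrn1Δ S288C, 3.03 in W303, 3.22 in haploid SK1, 4.33 in diploid SK1, 1.21 in dcp2-7 and 1.68 in upf1Δ. GDH2, the NAD-dependent glutamate dehydrogenase gene, belongs to a list of 5 ammonium assimilation genes of which 2, 4, 4, 5, 2 and 2 rose in the same comparisons on the snoRNA scale, with 1 falling in dcp2-7. Of the 5, 1, 1, 2, 1, 2 and 2 rose and 4, 4, 3, 4, 3 and 2 fell on the mRNA-median scale. GDH2 changed by 2.84, 3.28, 3.00, 5.16, 1.30 and 1.83 in that order. MEP2 and GDH2 were called on both scales in all 6 mutants. For them, as for DAL82, the share of all mRNAs called so was not counted. The permease genes CAN1, FUR4, GAP1 and UGA4 and the GABA catabolism genes UGA1 and UGA2 were called higher in all 6 on the snoRNA scale but not in all 6 on the mRNA-median scale, and GAP1 lies on chromosome 11. The share of all mRNAs called higher in all 6 on the snoRNA scale was not counted either, so these genes are not set apart from other mRNAs. Of 4 genes related in sequence to members (MLS1 to DAL7, GZF3 to DAL80, FUR4 and FUI1 to DAL4), 4 rose in every xrn1Δ comparison, 3 in dcp2-7 and 1 in upf1Δ, and none fell. Scaled to the median mRNA, 1, 2, 4, 1, 1 and 0 of them rose in the same order of comparisons, and 3 fell in upf1Δ and none elsewhere. The labels do not say how reads shared between such relatives were counted.

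Across the 12 group means, the mean pattern of the 9 genes was most like those of GIP1 (Pearson r = 0.986), YPL278C (0.978), FMP41 (0.973), YOR389W (0.972) and YCX1 (0.972) among 5584 mRNAs outside the 9. This is a description over groups that share their strains, libraries and scaling, and no test was made of it.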

How the data were processed

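The 32 RNA sequencing libraries (24 rRNA-depleted, 8 Terminator-treated) came from hot-phenol RNA and TruSeq stranded paired-end libraries, per the labels' protocols. TopHat, cutadapt and Bowtie are named in the submitters' processing notes, and neither a genome build nor read filters are named there. The deposited signal is a density: reads per nucleotide of each feature times 1 factor per library that makes snoRNA density times length sum to the same value in all libraries, so a global change of snoRNA would move every gene. Multiplied by length, 100.0% of the authors' signal values were whole multiples of 1 read (tolerance 0.01), and reads were recovered from them. CAGE positions are the authors' lists, pooled over replicates and deposited without a score per end.

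Tests used limma 3.58.1 in R 4.3.3 with trend and robust empirical Bayes on log2(density + pseudocount), which understates changes of low genes. The pseudocount was the 5th percentile of non-zero densities. The 24 depleted libraries (12 groups of 2, 12 residual df, pseudocount 0.00577) were 1 fit over 9712 features, and 16 S288C libraries with and without Terminator (8 residual df, pseudocount 0.00841) another over 9615. Features at or above the pseudocount in at least 2 libraries were kept: 9 and 8 of the 9 genes. Tests were two-sided, with Benjamini-Hochberg adjustment over all features tested and a threshold of 0.05. They were tested on simulated data. The mRNA-median scale set each library's median mRNA equal. Alternatives were other pseudocounts, no filter, that scale, limma voom on recovered reads, the replicate number as a block, each library left out, and another CAGE window. Motifs and leaders were read from the R64 genome, where 5757 of 5798 mRNAs had the deposited coordinates. All 9 genes, all listed regulators, genes called in most mutants and all overlapping noncoding RNAs are named, with the 5 mRNAs of highest correlation among those with an SD of at least 0.5 over group means. The genes and lists were chosen with earlier results of these data known. Deviations of same-numbered libraries correlated at −0.141 to 0.0823, except at 0.242 for Terminator in the wild type at 37 °C. With 2 libraries per group and no label that ties the numbers, they were not used as pairs.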

Additional observations from a re-analysis of the deposited data

Results flagged for a closer look

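The xrn1Δ change differed between backgrounds by the test of the difference itself (limma, interaction of genotype and background, 2 libraries per group) for 14 gene and background pairs. Differences are log2 on the snoRNA scale, larger in the background named first when positive, and none of their causes was tested.

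Between W303 and S288C, the xrn1Δ change was larger in W303 for the repressor gene DAL80 by 1.88 ± 0.27 (SE, adjusted p = 5.4e-05), for the urea transporter gene DUR3 by 1.58 ± 0.22 (adjusted p = 4.55e-05), for the urea amidolyase gene DUR1,2 by 1.38 ± 0.23 (adjusted p = 0.000221), for DAL2 by 0.91 ± 0.24 (adjusted p = 0.00873) and for DAL5 by 0.77 ± 0.19 (adjusted p = 0.0074). On the mRNA-median scale DUR3 (1.22), DUR1,2 (1.00) and DAL5 (0.40) stayed past the threshold, and DAL80 (0.59, adjusted p = 0.139) and DAL2 (0.54, adjusted p = 0.0741) did not. DAL80 had at most 5 reads in the wild-type S288C libraries, and its difference did not pass with a pseudocount 10 times lower (0.60) or by limma voom (0.31). The median mRNA of chromosome 11, which carries it, differed by −0.52 in this comparison against 0.42 elsewhere.

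Between haploid SK1 and S288C, the change was larger in SK1 for DUR1,2 by 0.89 ± 0.23 (adjusted p = 0.0031) and for DAL5 by 0.49 ± 0.19 (adjusted p = 0.0455), and smaller for DAL80 by −1.29 ± 0.27 (adjusted p = 0.000574) and for DAL3 by −0.98 ± 0.24 (adjusted p = 0.00209). The DAL5 call was lost without any 1 of 7 of the 8 libraries, the exception being wild-type SK1 replicate 1, with values from 0.34 to 0.57, but DAL5 was past the threshold on the mRNA-median scale (0.57, adjusted p = 9.88e-05). The DAL3 difference did not pass on the mRNA-median scale (−0.67, adjusted p = 0.0613), with a pseudocount 10 times lower (−0.70) or by limma voom (−0.72). The DAL80 difference, on 1 to 26 reads per library, ran from −3.76 to −0.30 with the pseudocount and by limma voom, past the threshold each time, and was −0.93 on the mRNA-median scale. The median mRNA of chromosome 11 differed by −0.91 against 0.05 elsewhere.

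Between diploid and haploid SK1, the change was larger in the diploid for DAL7 by 2.08 ± 0.19 (adjusted p = 1.7e-09), for DAL5 by 1.65 ± 0.19 (adjusted p = 7.73e-08), for DUR1,2 by 1.50 ± 0.23 (adjusted p = 3.35e-06), for DAL2 by 1.47 ± 0.24 (adjusted p = 6.39e-06) and for DUR3 by 1.22 ± 0.22 (adjusted p = 3.75e-05). The median mRNA differed by 1.55 in the same comparison. On the mRNA-median scale DAL7 (0.64, adjusted p = 0.000134) and DAL5 (0.28, adjusted p = 0.0166) stayed past the threshold.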

How the results depend on the processing

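The scale changed most. With libraries scaled to equal mRNA medians, the numbers of genes higher and lower were 5 and 1 for xrn1Δ in S288C, 7 and 1 in W303, 6 and 3 in haploid SK1, 4 and 2 in diploid SK1, 4 and 3 in dcp2-7, 3 and 1 for the W303 difference, 2 and 3 for haploid SK1, 2 and 3 for diploid SK1, 4 and 1 for upf1Δ against xrn1Δ, 1 and 5 for dcp2-7 against xrn1Δ, 6 and 1 for the wild type at 37 °C, 4 and 0 for the upf1Δ wild type, 1 and 4 for Terminator in xrn1Δ and 1 and 2 for its difference from wild type; 3 were lower for Terminator in wild type, 4 at 37 °C and 3 in dcp2-7. Changes that reversed on that scale were, in S288C, URE2 −0.28 and DUR1,2 −0.73; in W303, URE2 −0.21, DCG1 −1.94, DAL1 −0.44 and DAL4 −0.049; in haploid SK1, URE2 −0.41, XUT1352 −0.00104, DAL1 −0.63 and DAL4 −0.65; in diploid SK1, DCG1 −2.54, SUT195 −0.072, XUT0502 −0.092, SUT614 −0.39, XUT1352 −0.34, DAL1 −1.25, DAL3 −0.40, DAL4 −1.39 and DAL80 −0.22; in dcp2-7, GLN3 −0.31, GAT1 −0.31, GZF3 −0.10, URE2 −0.18, DAL81 −0.40, SUT614 −0.077, XUT1352 −0.18, DAL1 −0.40, DAL4 −0.18 and DUR1,2 −0.35; in upf1Δ, GLN3 −0.17, GZF3 −0.52, URE2 −0.41, DAL81 −0.27 and DAL80 −0.014. So did DUR1,2 in the diploid difference (−0.18), DAL4 for upf1Δ against xrn1Δ (0.21), DUR1,2 for dcp2-7 against xrn1Δ (0.38), DAL3 (0.17) and DUR1,2 (0.17) in the diploid wild type, DAL5 (0.085) and DAL7 (0.13) in the upf1Δ wild type, DAL1 (0.052) and DUR1,2 (0.16) for Terminator in xrn1Δ, and DUR1,2 (0.64) in its difference from wild type.

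A pseudocount 10 times lower left 1 gene higher and 1 lower for haploid SK1 against S288C, and the 25th percentile gave 1 lower for diploid SK1 and 1 higher for Terminator in dcp2-7. By limma voom 1 gene was higher for haploid SK1 against S288C, 1 higher for upf1Δ against xrn1Δ, 1 lower in the wild type at 37 °C, 2 lower for Terminator at 37 °C and 1 higher for Terminator in dcp2-7. With a CAGE window of 50 nucleotides either side, 0 of 9 genes had an end in dcp2-7 and 0 in the wild type. The cause of each change was not tested. Leaving out 1 library gave 1 to 2 genes higher for haploid SK1 against S288C, 0 to 1 higher for upf1Δ against xrn1Δ, 0 to 1 lower at 37 °C, 1 to 2 lower for Terminator in wild type and 0 to 2 at 37 °C; it reversed DCG1 in diploid SK1 (−0.090 to 0.16) and W303 (−0.20 to 0.36) and GZF3 in upf1Δ (−0.074 to 0.27), none of which was called.

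With the replicate number as a block, 1 gene was higher for haploid SK1 against S288C (2 without it), and no other count moved by over 1.5 times; crossing the numbers where correlations were negative, chosen after seeing the data, left counts of 5 and 0, 3 and 4, and 0 and 2 genes. Depth limits DAL80 most, with 0 to 43 reads outside xrn1Δ W303.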
